A study of Mus musculus with 4 samples.

Results

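Notch signalling was examined in sorted cells of the mouse genital ridge, given in the labels as primordial germ cells, through 10 genes of the Notch pathway and of arterial endothelium out of the 18327 genes that could be named on the array. The genes were the receptors Notch1 and Notch4, the ligands Dll4, Jag1 and Jag2, the target genes Hey1, Hey2 and Hes1, and the pair Efnb2 and Ephb4, which marks arteries and veins. They were listed by name, and all of their probes were taken, 12 in number, with 2 probes each for Jag1 and Efnb2. The study compared wild-type embryos with embryos lacking HP1γ (HP1g-/-), the chromatin protein encoded by Cbx3, known for recognising methylated histone tails. The null allele was made by a gene trap, and embryos of both genotypes carried a Blimp1-mVenus transgene, so that both groups consist of mVenus-positive cells from genital ridges at embryonic day 11.5. Each of the 4 samples, 2 wild-type and 2 HP1γ-null, was RNA pooled from 5 or 6 embryos with 500 to 3500 sorted cells each, so differences between single embryos are averaged within a pool. Every pool was hybridised to 1 one-colour Agilent array, and all values below are levels, meaning log2 signal relative to the 75th percentile of that array, or differences between such levels.

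Notch receptors are cut when they bind a Delta or Jagged ligand on a neighbouring cell, and the released intracellular part joins the DNA-binding protein RBPJ to switch on genes of the Hes and Hey families. In the vessels of the embryo, Dll4 and Notch1 are known for setting arterial identity, with the transmembrane ligand ephrin-B2 (Efnb2) on arterial cells and its receptor EphB4 (Ephb4) on venous cells. Notch4 is largely an endothelial receptor. Hes1 and Jag1 are used by many other cell types too.

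The sorted pools held abundant RNA of endothelial and of leukocyte marker genes beside germ cell RNA. All 16 endothelial markers listed (such as Pecam1, Cdh5, Kdr and Cd34) were well above background on all 4 arrays, with median levels of 4.92 and 5.05 in wild-type replicates 1 and 2 and 4.18 and 4.45 in null replicates 1 and 2. Their summed level was 9.36 and 9.54 in wild type and 8.67 and 8.93 in the null pools. All 16 had lower means in the null pools, by a median of -0.64 on the log2 scale, and 15 did so without overlap between the genotypes, against 23.0% of all 22447 probes tested. None of the 16 passed the test over all probes (limma). The 10 leukocyte markers were well above background on all 4 arrays too. Their median levels were 4.20 and 4.50 in wild type and 4.45 and 3.94 in null replicates 1 and 2. Their median difference was -0.15, and the part of leukocyte RNA in the values below was not tested. The 9 germ cell markers tested, 6 of them through the wild-type pools alone, had median levels of -0.45 and -1.55 in wild type, against 1.48 and -5.91 in null replicates 1 and 2, so null replicate 2 stands apart. The germ cell genes Dppa3, Pou5f1 and Ddx4 were well above background on the other 3 arrays and not in null replicate 2, at levels there of -7.04, -5.33 and -6.73. Dnd1 and Dppa5a were also lowest in null replicate 2, at -2.05 and -0.84, but were well above background on all 4 arrays. Prdm1, which encodes Blimp1 the gene the reporter is named for, read 1.24 and 1.27 in wild type and 1.48 and 0.65 in the null pools. The targeted gene was low in both null pools, Cbx3 reading 4.80 and 5.07 in wild type against -1.95 and -1.59 (probe A_51_P160328, the dimmer of its probes). In such bulk samples, fewer cells of a type and less RNA per cell cannot be told apart, and for that reason no value below can be assigned to endothelial cells alone.

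**Figure D1:**
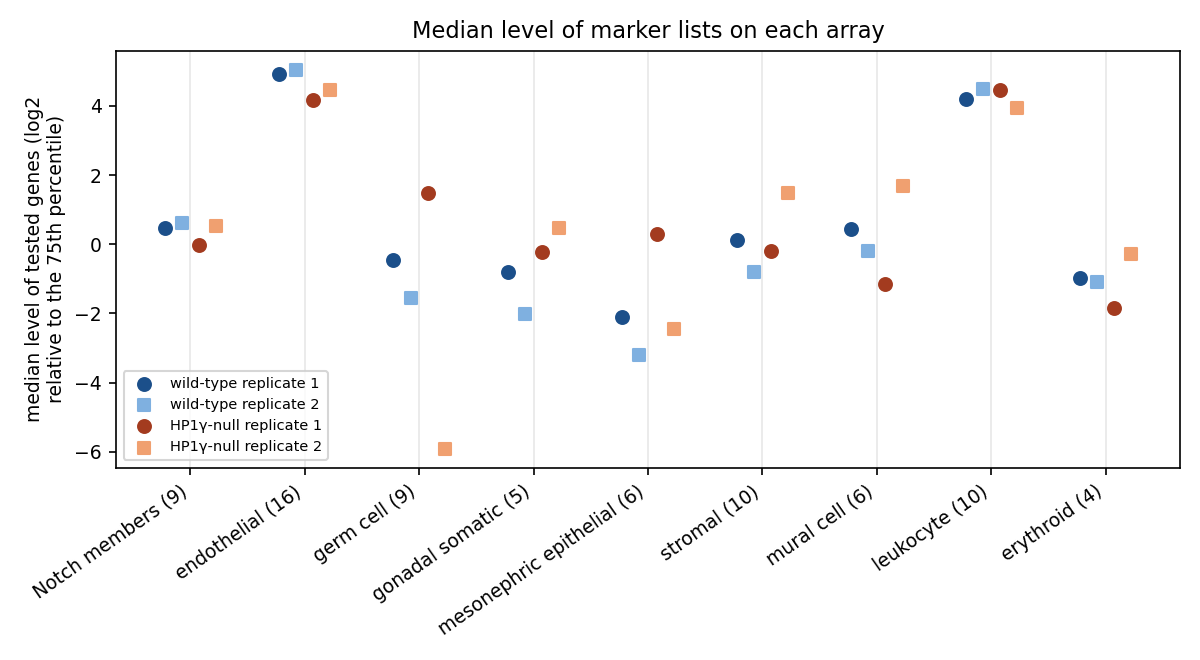
Median level of the tested genes of each list (log2 signal relative to the array's 75th percentile; number of tested genes in brackets) on each of the 4 arrays. The Notch genes lie between -0.02 and 0.62, while germ cell markers range from -5.91 in null replicate 2 to 1.48 in null replicate 1.

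Promoters were searched for the core of the RBPJ site, TGGGAA, and for the E-box CACGTG, a site read by basic helix-loop-helix factors such as the Hes and Hey proteins, each on both strands. The sequences are those of RefSeq on build GRCm38.p6, searched over 250 bases before to 50 bases after the gene's start, and 8 of the 10 genes were matched. No window was at hand for the target genes Hey1 and Hes1, so their promoters were not searched. The RBPJ core was in 1 of these 8 windows, that of Hey2, against 25.6% of all 32851 windows of the same length. The E-box was in none of the 8, against 7.15% of all windows. A match is only a match of letters, and its absence says nothing about the factor. Shown are Hey2, the window with matches, and Notch1, Dll4 and Jag2, the genes that were lower in the null pools without overlap, each from 250 bases before to 10 bases after the start, 5′ to 3′ on the gene's strand, with RBPJ cores in capitals (TTCCCA is the core on the other strand).
Hey2, chr10:30842774-30843033, minus strand: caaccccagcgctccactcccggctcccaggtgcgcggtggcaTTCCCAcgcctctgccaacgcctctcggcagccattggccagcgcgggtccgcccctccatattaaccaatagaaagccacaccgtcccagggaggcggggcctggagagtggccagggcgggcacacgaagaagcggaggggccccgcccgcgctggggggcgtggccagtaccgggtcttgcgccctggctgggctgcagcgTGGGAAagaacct
Notch1, chr2:26503813-26504072, minus strand: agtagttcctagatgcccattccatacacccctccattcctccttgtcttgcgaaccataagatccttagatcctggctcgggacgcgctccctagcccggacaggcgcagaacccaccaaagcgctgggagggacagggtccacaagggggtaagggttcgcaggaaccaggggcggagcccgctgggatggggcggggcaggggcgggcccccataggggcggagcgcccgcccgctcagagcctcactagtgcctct
Dll4, chr2:119325534-119325793, plus strand: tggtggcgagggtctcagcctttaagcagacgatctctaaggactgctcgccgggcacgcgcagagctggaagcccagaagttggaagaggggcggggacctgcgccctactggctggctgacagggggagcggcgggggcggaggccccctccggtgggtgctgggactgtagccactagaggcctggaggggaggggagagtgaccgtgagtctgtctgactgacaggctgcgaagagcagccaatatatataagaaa
Jag2, chr12:112929486-112929745, minus strand: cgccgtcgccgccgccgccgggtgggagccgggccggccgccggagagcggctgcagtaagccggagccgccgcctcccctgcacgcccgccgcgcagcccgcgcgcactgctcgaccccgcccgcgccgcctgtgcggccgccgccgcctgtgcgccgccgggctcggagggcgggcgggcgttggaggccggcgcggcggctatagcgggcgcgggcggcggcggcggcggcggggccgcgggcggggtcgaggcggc
In Hey2 the matches begin 207 and 3 bases before the start. GC content of the searched windows was 72.0% for Hey2, 68.3% for Notch1, 63.7% for Dll4 and 86.0% for Jag2, where the median of all windows was 52.7%.

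Across the 9 genes measured well enough to be tested, 8 had lower means in the null pools and 1, Hey1, a higher mean. None of the 9 passed the threshold (limma adjusted p under 0.05), which 0.00891% of all probes tested did. The Cbx3 probe given above passed (limma adjusted p = 0.044). The brighter Cbx3 probe, 225-fold lower in the null pools, did not (limma adjusted p = 0.099). With each gene read by its brightest probe, none of the 12135 named genes tested passed. A gene that was not called is therefore not shown to be unchanged. The median difference of the 9 genes was -0.38 on the log2 scale, where that of all probes tested was -0.06. Lower means were found for 58.3% of all probes. Notch1, Dll4 and Jag2, 3 of the 9, were lower without overlap, against the 23.0% of all probes, a share close to that of the array for so few genes. The shares here and below count probes, whereas members and lists count 1 probe per gene. Counted by gene, 6435 of the 12135 named genes tested had lower null means, and the median difference was -0.02. Without overlap, 2515 of them were lower and 2145 higher. Jag2 was the 1 gene with an unadjusted p under 0.05, which 7.50% of all probes had. The median difference rested largely on null replicate 1. Without that pool it was -0.08, and it was -0.57 without null replicate 2, -0.46 without wild-type replicate 1 and -0.23 without wild-type replicate 2. Scaling to the spiked-in control RNA moved the median of all probes to -0.60 and with it every difference below by the same amount. All 9 genes were then lower, with a median of -0.92, but so were 20436 of the 22447 probes tested. The count of 9 is thus no result about Notch genes.

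**Figure D2:**
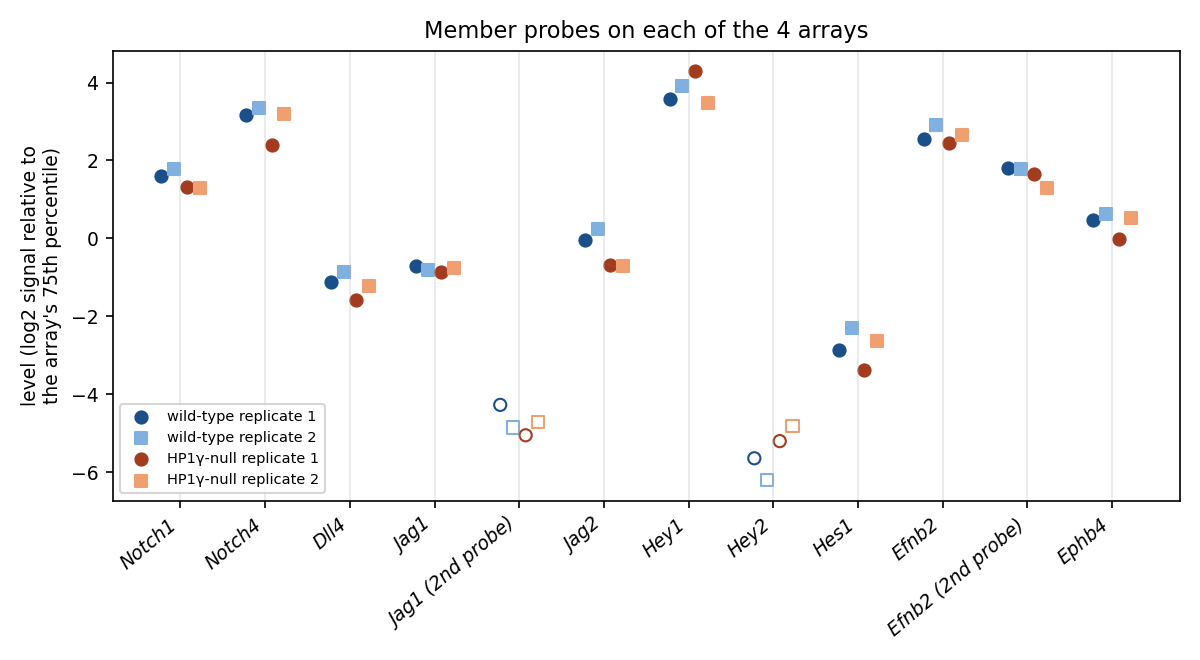
Level of each of the 12 probes (log2 signal relative to the array's 75th percentile) on each array; open symbols are probes not well above background on any array. For Notch1, Dll4 and Jag2 both null pools lie below both wild-type pools, whereas for Hey1 null replicate 1 is the highest of the 4.

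Among the receptors, Notch1 read 1.61 and 1.77 in wild-type replicates 1 and 2 and 1.33 and 1.29 in null replicates 1 and 2. Both null pools lay below both wild-type pools and were close to each other. The log2 difference was -0.38 with SE 0.20 (95% interval -0.91 to 0.14, not adjusted for the number of probes), or 1.31-fold, and limma did not call it (adjusted p = 0.76). Notch4 read 3.17 and 3.35 in wild type and 2.39 and 3.18 in the null pools. Only null replicate 1 was low, since null replicate 2 equalled wild-type replicate 1 to within 0.01. The difference of -0.48 with SE 0.33 had an interval of -1.37 to 0.41 (limma adjusted p = 0.83). Leaving out null replicate 2 gave -0.88, and leaving out null replicate 1 gave -0.08.

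The ligands had differences of unlike size, which were not tested against each other. Dll4, the Delta ligand of arteries and sprouting tip cells, read -1.11 and -0.85 in wild type and -1.59 and -1.21 in the null pools. The groups did not overlap, though wild-type replicate 1 and null replicate 2 were separated by only 0.10. Its difference was -0.42 with SE 0.25 (interval -1.08 to 0.23, limma adjusted p = 0.79), and -0.23 without null replicate 1. Jag2, a Jagged ligand, showed the widest separation of the 10 genes relative to its spread. It read -0.04 and 0.24 in wild type and -0.67 and -0.71 in the null pools, so the 2 null pools were nearly equal and the genotypes did not overlap. The difference of -0.79 with SE 0.21 (interval -1.36 to -0.23) corresponds to 1.73-fold lower levels and had an unadjusted limma p of 0.017, but an adjusted p of 0.54. With 1 array left out at a time it lay between -0.93 and -0.65, and it was -0.50 with normexp background correction. Jag1, by contrast, read -0.72 and -0.82 in wild type and -0.87 and -0.77 in the null pools, with overlapping groups. Its difference was -0.05 with SE 0.19 (interval -0.57 to 0.47, limma adjusted p = 0.98), and it took the other sign, at 0.03, with normexp background correction. A further probe of Jag1 was well above background on none of the arrays.

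The target genes gave no common direction. Hey1, a transcriptional repressor induced by Notch in arterial endothelium, read 3.57 and 3.92 in wild type, and 4.29 and 3.48 in the null pools. The null pools thus enclosed both wild-type values, null replicate 1 being the highest array for Hey1 and null replicate 2 the lowest. The difference of 0.14 with SE 0.35 (interval -0.80 to 1.08, limma adjusted p = 0.97) turned to -0.27 without null replicate 1, to -0.04 without wild-type replicate 1 and to -0.40 with scaling to spiked-in RNA. Hes1, a repressor used widely in progenitor cells, read -2.85 and -2.31 in wild type and -3.37 and -2.63 in the null pools. These values overlapped, as wild-type replicate 1 was below null replicate 2. Its difference was -0.42 with SE 0.36 (interval -1.38 to 0.55, limma adjusted p = 0.87), with -0.05 without null replicate 1 and -0.79 without null replicate 2. Hey2, the partner of Hey1 in arterial vessels, was well above background on none of the arrays. Its processed signals were 3.77 and 2.97 intensity units in wild type and 3.39 and 10.3 in the null pools, beside 75th percentiles of 188 and 219 in wild type and 125 and 291 in the null pools, and no order is read from them.

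Neither the arterial nor the venous gene of the ephrin pair separated the genotypes by its brightest probe. Efnb2 read 2.56 and 2.90 in wild type and 2.44 and 2.66 in the null pools, with overlap. The difference was -0.19 with SE 0.23 (interval -0.81 to 0.43, limma adjusted p = 0.92), and -0.02 without wild-type replicate 2. Its dimmer probe read 1.80 and 1.77 in wild type and 1.65 and 1.30 in the null pools, which do not overlap (difference -0.31, SE 0.22, limma adjusted p = 0.84). The probes of Efnb2 had null replicate 1 and null replicate 2 in opposite order. Ephb4 read 0.48 and 0.62 in wild type, and -0.02 and 0.53 in the null pools, where only null replicate 1 was low. Its difference was -0.29 with SE 0.27 (interval -1.01 to 0.43, limma adjusted p = 0.87), -0.02 without null replicate 1 and -0.57 without null replicate 2. Within each array, the level of Efnb2 minus that of Ephb4 was 2.08 and 2.28 in wild type and 2.46 and 2.12 in the null pools. This arterial-to-venous contrast overlapped between the genotypes, with a mean change of 0.11. Probes differ in brightness, so only the change in this contrast between arrays, not its size, can be read.

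**Figure D3:**
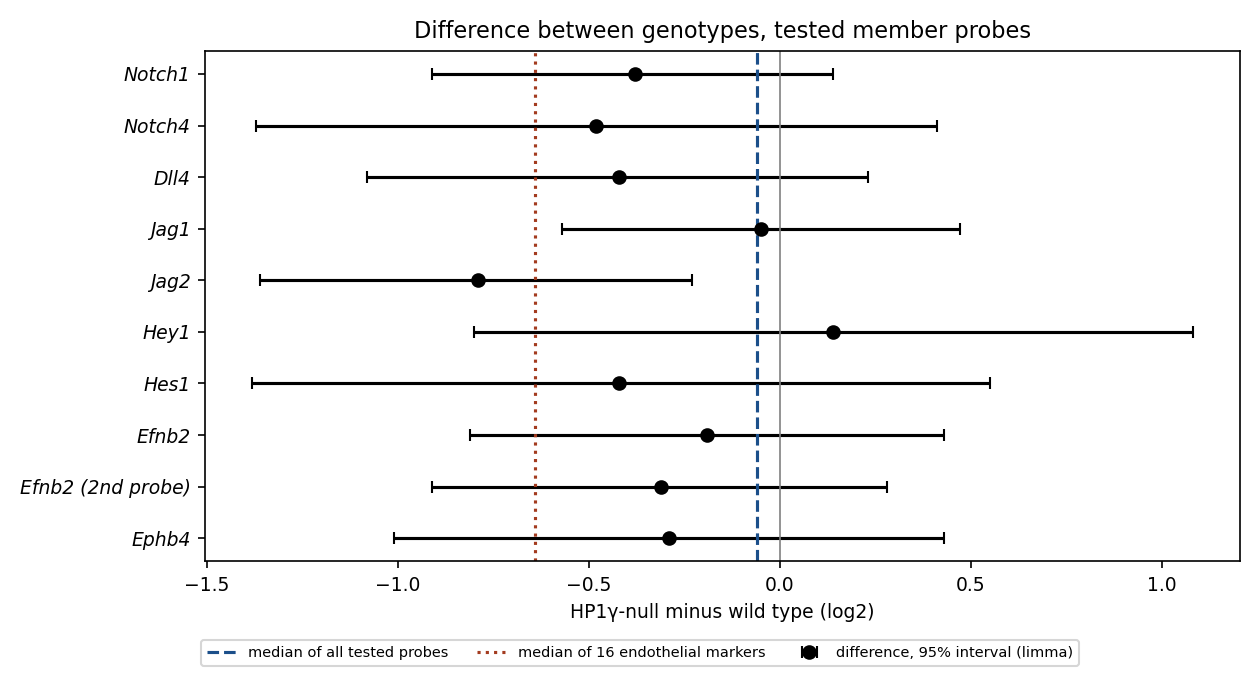
Difference between HP1γ-null and wild-type means (log2) for each tested probe of the members, with the 95% interval from limma, not adjusted for the number of probes. All intervals but that of Jag2 include 0, and all points but that of Jag2 at -0.79 lie to the right of the endothelial median of -0.64.

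Null replicate 1 was the array with the lowest level for 6 of the 9 genes, against 30.3% of all probes tested, and for 14 of the 16 endothelial markers. The gap between the null replicates was 0.80 for Notch4, 0.74 for Hes1, 0.55 for Ephb4 and 0.38 for Dll4, each lower in null replicate 1. For Notch1 and Jag2 it was 0.04, and Hey1 ran the other way by 0.81. Levels were therefore also expressed relative to the median of the 16 endothelial markers on the same array. On that scale Notch4 read -1.74 and -1.69 in wild type and -1.79 and -1.27 in the null pools. Jag2 read -4.96 and -4.81 in wild type and -4.85 and -5.17 in the null pools, which overlap. This scale raises every null minus wild-type difference by the same amount, so that overlap is no result about Jag2. Notch1 read -3.30 and -3.28 in wild type and -2.85 and -3.17 in the null pools. Dll4 read -6.03 and -5.89 in wild type and -5.77 and -5.67 in the null pools. For both genes the null values were then the higher ones. Hey1 read -1.35 and -1.12 in wild type and 0.11 and -0.98 in the null pools, both null values being higher. Relative to the endothelial markers, the null means of 8 of the 9 genes were the higher ones and that of Jag2 the lower (-0.13), at a median of 0.28. This is no result about Notch genes, because 95.1% of all probes were higher on that scale, and their median was 0.61. None of the 9 passed in that form (limma adjusted p from 0.19 for Jag1 to 0.71 for Jag2), while 0.249% of all probes did. The part that endothelial RNA content plays in the lower Notch gene levels was not tested beyond these values.

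The other parts of the pathway were read from lists of receptors, ligands, enzymes and nuclear factors. Limma called none of their genes at an adjusted p under 0.05, and the number at an unadjusted p under 0.05 is given with each list. The remaining receptors, named here for their role after their values were seen, had higher rather than lower means in the null pools. Notch2 read 1.25 and 1.34 in wild type and 1.31 and 1.77 in the null pools (difference 0.24, limma adjusted p = 0.89, -0.30 with scaling to spiked-in RNA and 0.01 without null replicate 2), and its dimmer tested probe gave 0.66. Notch3, a receptor of mural cells, read 0.49 and 0.10 in wild type and 0.37 and 1.94 in the null pools (difference 0.86, limma adjusted p = 0.82), so that only null replicate 2 was high, and the difference was 0.07 without it. Of 9 mural cell markers, 6 were tested, 1 of them through the null pools alone. Their median level was highest in null replicate 2, at 1.69, against 0.43 and -0.19 in wild type and -1.14 in null replicate 1. Only 3 of the 6 were themselves highest in that pool, and 2 were lower in the null pools without overlap. Of 10 stromal markers tested, 9 were highest in null replicate 2. The summed level of all 9 mural cell markers was 6.14 and 6.15 in wild type and 5.82 and 6.19 in the null pools, and none of them was below background throughout. The part of mural cell or stromal RNA in the Notch3 value was not tested.

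Of the 5 further receptor and ligand genes tested, 4 had higher null means and 1 a lower one, the median difference being 0.41 (-0.13 with scaling to spiked-in RNA, 0.01 without null replicate 2 and 1.05 without null replicate 1), with 1 unadjusted p under 0.05. That gene was Dll1, another Delta ligand, which read -1.85 and -2.05 in wild type and -2.93 and -2.89 in the null pools. Like Jag2 it was low in both null pools and nearly equal in them, at a difference of -0.96 with SE 0.20 (interval -1.50 to -0.43, limma unadjusted p = 0.0067, adjusted p = 0.46). The size of the Dll1 difference depended on the background treatment, being -0.33 with normexp background correction. Dlk1, an imprinted gene whose protein resembles the Delta ligands, read -0.80 and -1.81 in wild type and -0.57 and 3.66 in the null pools. Its difference of 2.85 with SE 1.47 (limma adjusted p = 0.76) came mostly from null replicate 2 (0.73 without it), where stromal markers were also highest, with a median level of 1.49 against 0.11 and -0.80 in wild type and -0.20 in null replicate 1. The summed level of these 10 markers was 4.66 and 3.43 in wild type and 3.67 and 6.45 in the null pools, and all 10 were well above background on all arrays. The part of stromal RNA in it was not tested.

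Of 6 other Hes, Hey and target genes tested, 3 had higher null means and 3 lower ones, the median difference being -0.19 (-0.38 without null replicate 1 and -0.08 without null replicate 2), with 1 unadjusted p under 0.05. Notch3, listed here as a target gene, is 1 of these 6 and the highest of them, at 0.86. It was already counted among the receptors above, so the even split rests in part on a gene given before. The growth regulator Myc read 1.83 and 1.76 in wild type and 1.11 and 1.32 in the null pools, without overlap (difference -0.58, limma adjusted p = 0.64), and its further probes gave -0.56 and -0.84. Nrarp, a target gene that feeds back on Notch, read -0.77 and -0.72 in wild type and -1.02 and -1.45 in the null pools. It too did not overlap (difference -0.49, SE 0.24, limma adjusted p = 0.75, and -0.27 without null replicate 2). Of 7 protease genes, 3 had higher null means and 4 lower ones, the median difference being -0.04, with none at an unadjusted p under 0.05. Adam17, which encodes a sheddase of the cell surface, differed by -0.55 (-0.29 without null replicate 2), and Psenen, of the gamma-secretase complex that makes the last cut in Notch, by 0.28, or -0.26 with scaling to spiked-in RNA (limma adjusted p = 0.73 for Adam17 and 0.82 for Psenen). All 3 glycosyltransferases tested were lower, with a median of -0.41, and none had an unadjusted p under 0.05. The Fringe genes Mfng and Lfng, whose enzymes add sugars to Notch and shift its preference between ligands, both differed by -0.41 without overlap (limma adjusted p = 0.77 and 0.80). Without null replicate 1 Mfng differed by -0.27, and without wild-type replicate 2 Lfng differed by -0.19.

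Nuclear and intracellular components were close to the array's median. Of 15 nuclear cofactor genes tested, 4 had higher null means and 11 lower ones, the median difference being -0.06, with none at an unadjusted p under 0.05. Rbpj itself, named for its role after its values were seen, read 1.60 and 1.70 in wild type and 1.86 and 1.22 in the null pools, which enclosed the wild-type values (difference -0.11, limma adjusted p = 0.97, and 0.21 without null replicate 2). The coactivator gene Maml2 differed by -0.53 and the acetyltransferase gene Ep300 by -0.26 (limma adjusted p = 0.84 and 0.86), though a dimmer probe of Ep300 gave 0.88. Maml2 differed by -0.07 without null replicate 1 and by -0.99 without null replicate 2, and Ep300 by -0.12 without null replicate 2. Of 13 genes of endocytosis and turnover, 7 had higher null means and 6 lower ones, the median difference being 0.05 (-0.49 with scaling to spiked-in RNA, 0.33 without null replicate 1 and -0.08 without null replicate 2), with 1 unadjusted p under 0.05. Of the 7, Dtx1 was tested through the null pools alone, being well above background on 1 wild-type array. Epn2, an epsin of the kind needed to internalise ligands, read 1.20 and 1.25 in wild type and 0.67 and 0.59 in the null pools (difference -0.60, SE 0.19, limma adjusted p = 0.61). Its dimmer probe differed by only -0.17, with overlap. The Deltex gene Dtx4, of a family of ubiquitin ligases acting on Notch, differed by -0.48 (limma adjusted p = 0.69) and by -0.64 and -0.44 on its further probes.

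**Figure D4:**
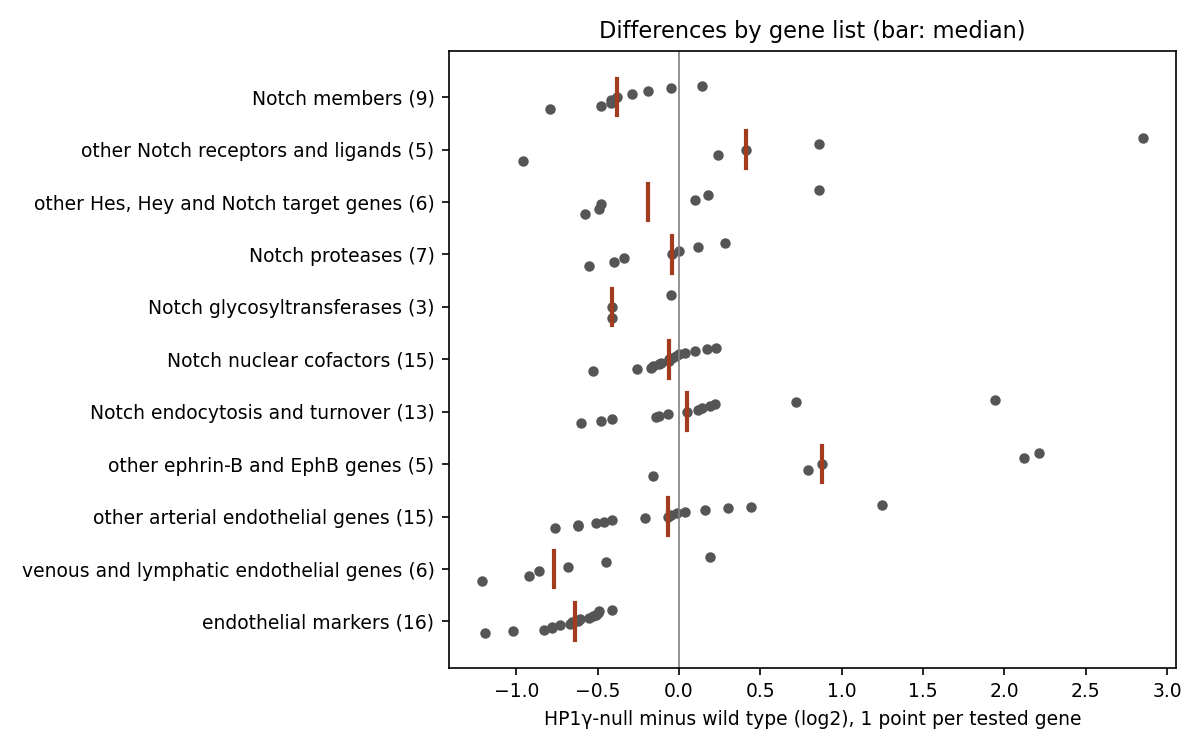
Difference between HP1γ-null and wild-type means (log2), 1 point per tested gene (brightest probe), by list, with the median as a bar and the number of tested genes in brackets. The member genes have a median of -0.38, between the nuclear cofactors at -0.06 and the endothelial markers at -0.64, and the remaining ephrin-B and EphB genes extend to 2.21.

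Other genes of arteries were read beside the members. Of 15 arterial genes tested, 5 had higher null means and 10 lower ones, the median difference being -0.07 (-0.45 if null replicate 2 was left out, -0.26 if wild-type replicate 1 was), with 2 unadjusted p-values under 0.05. Without overlap, 6 were lower and 2 higher, against 23.0% and 15.1% of all probes. Acvrl1, the BMP receptor ALK1 of arterial endothelium, read -0.66 and -0.44 in wild type and -1.44 and -1.18 in the null pools (difference -0.76, SE 0.22, limma adjusted p = 0.58). The vascular transcription factor gene Sox18 read 3.42 and 3.47 in wild type and 2.86 and 2.79 in the null pools. Its difference of -0.62 with SE 0.19 (limma adjusted p = 0.61) was near the median of the endothelial markers. Of 6 venous and lymphatic genes 1 had a higher null mean and 5 lower ones, the median difference being -0.77 (-0.35 without null replicate 1), with 2 unadjusted p-values under 0.05, and 5 were lower without overlap, against the same 23.0%. The lymphatic regulator gene Prox1 read -1.94 and -2.42 in wild type and -3.01 and -3.77 in the null pools (difference -1.21, SE 0.36, limma adjusted p = 0.58). With normexp background correction the Prox1 difference was -0.46. Lyve1, found on lymphatic endothelium and on macrophages, differed by -0.92 (limma adjusted p = 0.65, and -0.57 without null replicate 2). These lists are small, the arterial one includes genes of other cells such as Cxcl12, and the difference between the arterial and the venous medians was not tested.

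Relatives of the ephrin pair mostly had higher means in the null pools. Of 5 further ephrin-B and EphB genes tested, 4 had higher null means and 1 a lower one, the median difference being 0.88 (0.34 with scaling to spiked-in RNA and 1.89 without null replicate 1), with 2 unadjusted p-values under 0.05, and 2 were higher without overlap, against 15.1% of all probes. Ephb2, a receptor for ephrin-B ligands, read -2.98 and -3.90 in wild type and -1.90 and -0.73 in the null pools (difference 2.12, SE 0.54, limma unadjusted p = 0.014, adjusted p = 0.53). Ephb3 read -2.78 and -3.15 in wild type and -1.74 and 0.23 in the null pools (difference 2.21, SE 0.70, limma adjusted p = 0.61). Both receptors were highest in null replicate 2, and without that pool the differences were 1.53 for Ephb2 and 1.22 for Ephb3 and the median of the list was 0.20. Of 11 gonadal somatic markers, 4 were well above background on all arrays, with differences between 1.00 and 2.14. Wnt4 was tested through the null pools alone, being not well above background in wild type, and the remaining 6 were not tested. The summed level of all 11 was 1.86 and 0.87 in wild type and 2.32 and 3.35 in the null pools, and none was below background throughout. Higher null means were not particular to that list. All 10 stromal markers tested had them, and 9 were highest in null replicate 2. Of 6 mesonephric epithelial markers tested, 5 had higher null means and 1 a lower one, with 1 highest in null replicate 2. The part of any of these cell types in the Ephb2 and Ephb3 values was not tested.

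Finally, the genes whose profile over the 4 arrays lay nearest to that of Dll4 were sought, after each gene was centred on its mean. The search covered 11828 of the 12135 named genes tested, leaving out provisional symbols such as Gm, LOC and Rik names. The nearest were Agmo, Pctp, Stab1 and Exog, at a root mean square distance of 0.020, 0.023, 0.031 and 0.036 on the log2 scale. Stab1, a scavenger receptor of sinusoidal endothelium and macrophages, read 6.53 and 6.75 in wild type and 6.06 and 6.47 in the null pools. Of the members, Ephb4 was nearest to Dll4, at a distance of 0.10 and rank 206, and Hey1 the farthest, at 0.51 and rank 9466. Of the 2 endothelial markers compared in this way, the cadherin gene Cdh5 had rank 82 and the receptor gene Kdr rank 1016, farther than Notch1, Notch4, Hes1, Efnb2 and Ephb4. With 4 arrays many genes share a profile, so these ranks are a description only.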

How the data were processed

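Expression was measured on 4 arrays, 1 per RNA pool, 2 pools per genotype as the labels give it. Per the labels, 4 ng of RNA was amplified with a low-input kit. Per the file headers, the deposited intensity values come from Agilent Feature Extraction 10.7.3.1, background-subtracted and detrended, and not scaled to a common 75th percentile. All arrays carry 1 slide barcode. The deposited value table holds the same processed intensity on a linear, uncentred scale, within 0.5% (medians 20.6 and 22.6 in wild type, 14.5 and 33.4 for HP1γ-null), and served as an alternative.

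Computed here were log2 processed signals minus each array's 75th percentile, averaged over a probe's spots without outlier spots. A probe was tested if both pools of 1 genotype or the other had it well above background, which left 22447 of 41174. The tests were those of limma 3.58.1 (R 4.3.3; functions lmFit and eBayes, two-sided p, adjusted by Benjamini-Hochberg across the tested probes, called under 0.05), on 2 residual and 2.42 prior degrees of freedom. Between 53.3% and 63.3% of spots were well above background, and the number of arrays limits the precision. Probe accessions were matched to RefSeq symbols of GRCm38.p6, naming 26888 probes; 14286 have no name here. The array was designed on another assembly, so probes carry no coordinates. A gene is represented by its brightest tested probe, except for the Cbx3 levels, which are those of its dimmer probe. Members and lists were chosen with earlier results of these data known. Named genes are the members and, from each other pathway list, the 2 with the smallest unadjusted p, with exceptions stated where they occur, besides germ cell genes given as levels, Cbx3 and the 4 genes nearest to Dll4. The script was checked on simulated data. Alternatives were background correction (normexp, on spot medians in place of the planned spot means), normalization, filter, variance model, replicate block, and leaving out each array.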

Additional observations from a re-analysis of the deposited data

How the results depend on the processing

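Limma called no member and none of the other pathway and vascular genes named under any alternative run; adjusted p lay between 0.15 and 1 for members and reached 0.099 for Prox1. With all arrays 2 probes were called (1684 at an unadjusted p under 0.05). That count was 133 with scaling to spiked-in RNA, 12 with a trended and robust variance model, 13 with the replicate block, 1 with probes well above background on all 4 arrays, 0 without a filter (1474 at an unadjusted p under 0.05), and 0 to 0 with 1 array left out (607 to 5644). The replicate numbers are not shown to pair the pools: their deviations correlated at 0.07 across probes, and the block changed no call among the genes named. The members' median of -0.38 was -0.92 with scaling to spiked-in RNA, -0.19 with normexp, 0.28 relative to endothelial markers and -0.57 to -0.08 with 1 array left out. Relative to endothelial markers, which moves all probes up, the sign turned for Notch1 (0.28), Notch4 (0.19), Dll4 (0.24), Jag1 (0.61), Hes1 (0.25), Efnb2 (0.48) and Ephb4 (0.37). Scaling to spiked-in RNA, which moves all probes down, turned Hey1 (-0.40), Notch2 (-0.30), Psenen (-0.26), Cxcr4 (-0.24), Gja5 (-0.10) and Unc5b (-0.38). Normexp turned Jag1 (0.03) and Gja4 (0.02), and quantile normalization Gja4 (0.01). With 1 array left out the sign turned for Hey1 (-0.27 to 0.54), Rbpj (-0.43 to 0.21), Gja4 (-0.20 to 0.17) and Unc5b (-0.08 to 0.40). The other 116 of 127 values for members and 313 of 325 for other named genes kept their direction and stayed uncalled.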

Other observations

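Some arterial genes outside the 10, picked after their values were seen, had null means close to or above the wild-type means, where all 16 endothelial markers had lower ones. In the arterial list as a whole, 10 of 15 tested genes had lower null means, 6 of them without overlap (23.0% of all probes). Gja5, the arterial gap junction gene of connexin 40, read 0.96 and 1.14 in wild-type replicates 1 and 2 and 1.75 and 1.23 in null replicates 1 and 2. Both null pools were higher, and null replicate 1 was the highest array, as for Hey1. The difference was 0.44 with SE 0.26 (limma adjusted p = 0.80), -0.10 with scaling to spiked-in RNA and 0.19 without null replicate 1. Such a separation upwards was found for 15.1% of all probes tested. Gja4, a further connexin gene of arteries, read 3.17 and 3.54 in wild type and 3.39 and 3.29 in the null pools, which lay within the wild-type values (difference -0.01). The guidance receptor gene Unc5b read 2.91 and 3.27 in wild type and 3.01 and 3.48 in the null pools, with overlap (difference 0.16, limma adjusted p = 0.95, or -0.38 with scaling to spiked-in RNA). Cxcr4, a chemokine receptor gene of arterial endothelium and of migrating germ cells, read -0.34 and -0.20 in wild type and 0.20 and -0.15 in the null pools (difference 0.30, limma adjusted p = 0.85, -0.24 with scaling to spiked-in RNA and 0.12 without null replicate 1).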
